A study of Homo sapiens with 9 samples.

Results

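The transcripts described here are those of the MHC class II antigen presentation genes in the human monocytic leukaemia line THP-1. They comprise 8 class II genes (HLA-DRA, HLA-DRB1, HLA-DRB5, HLA-DPA1, HLA-DPB1, HLA-DMA, HLA-DMB and HLA-DOA), CD74 and CIITA. The genes were chosen by name, and each was found once by its symbol, giving 10 of the 34643 genes in the deposited expression table.

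MHC class II molecules are cell-surface pairs of an alpha and a beta chain that show peptides from engulfed material to CD4+ T cells. CD74, the invariant chain, fills their groove during assembly and guides them to endosomes, where HLA-DM exchanges its last fragment for peptide and HLA-DO restrains HLA-DM. CIITA is the co-activator that switches these genes on. It does not bind DNA itself but docks on RFX, CREB and NF-Y proteins at a shared promoter module, and in macrophages interferon-gamma is its best known inducer.

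All 9 libraries came from wild-type THP-1 cells that had been given 500 nM PMA, a phorbol ester that drives these cells towards macrophages, for 4 h, then washed and rested for 24 h. The 3 control libraries received nothing further, 3 received LPS, bacterial endotoxin, at 1 µg/mL, and 3 received LPS at 1 µg/mL with PD at 10 µM. PD is panaxadiol by the title of the series. There was no group with PD alone, and the sources used here give neither a vehicle nor how long LPS and PD were on the cells. Poly(A)-enriched RNA was sequenced, so the values are transcript levels and no protein was measured.

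Levels are FPKM, fragments scaled to exon length and to the fragment total of a library, with 15641369 to 17875238 fragments per library. Of 12 monocyte and macrophage markers 9 reached 1 FPKM in at least 1 library, and their 12 levels summed to 675 to 721 FPKM in control, 913 to 925 with LPS and 961 to 974 with LPS+PD. CD14 reached 1 FPKM only in treated libraries, with means of 0.466, 35.1 and 10.1 FPKM in control, LPS and LPS+PD. MRC1 and CD163 stayed below 1 FPKM throughout. CD68, a marker of the labelled cell type, was at 0.128 FPKM in control, and 85.8% of its exon bases also lie in exons of other annotated genes. Summed markers of other cells that carry class II were lower. The 7 B cell markers in the table summed to 8.56 to 8.83, 7.07 to 7.95 and 6.46 to 7.73 FPKM in the same order of groups, with MS4A1 at 0 in all control libraries. The 9 dendritic cell markers summed to 41.0 to 43.0, 25.1 to 25.9 and 30.0 to 31.7 FPKM, with CLEC9A at 0 in all control libraries. This sum follows FLT3 (35.5, 9.01 and 15.7 FPKM), while the other 3 tested dendritic markers were called higher with LPS, among them CD1C (0.288 to 6.39 FPKM) and ZBTB46 (3.59 to 6.06 FPKM). The 4 T cell markers present summed to 0.162 to 0.382 FPKM in control, 2.57 to 3.55 with LPS and 0.763 to 1.63 with LPS+PD. TRAC, the only one tested, was at 0.166, 3.10 and 1.25 FPKM, called higher with LPS and lower with LPS+PD against LPS. CD3G was at 0 throughout. Epithelial markers summed to at most 0.403 FPKM in any library. The part of these markers in the results below was not tested.

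In control cells the 8 class II genes summed to 138 ± 0.504 FPKM (SD, n = 3), and with LPS to 283 ± 5.20 FPKM. With LPS+PD they summed to 271 ± 1.02 FPKM. The HLA-DR genes made up 97.6% of the sum in control, 97.7% with LPS and 97.3% with LPS+PD, so nearly all of the sum over these 8 genes was HLA-DR. HLA-DQB1, a class II gene outside the 8, was at 3.08, 3.17 and 4.11 FPKM in the same order of groups. The shares also depend on the length used. Scaled to its longest coding transcript in place of all exon bases, HLA-DPA1 was at 10.1 FPKM with LPS, against 2.99. The makeup within HLA-DR moved: HLA-DRA held 6.12% of the sum in control, 31.2% with LPS and 25.6% with LPS+PD, while HLA-DRB1 held 68.0%, 49.0% and 52.7%. In these bulk samples a change in the number of cells that hold a transcript and a change in the amount per cell cannot be told apart.

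**Figure D1:**
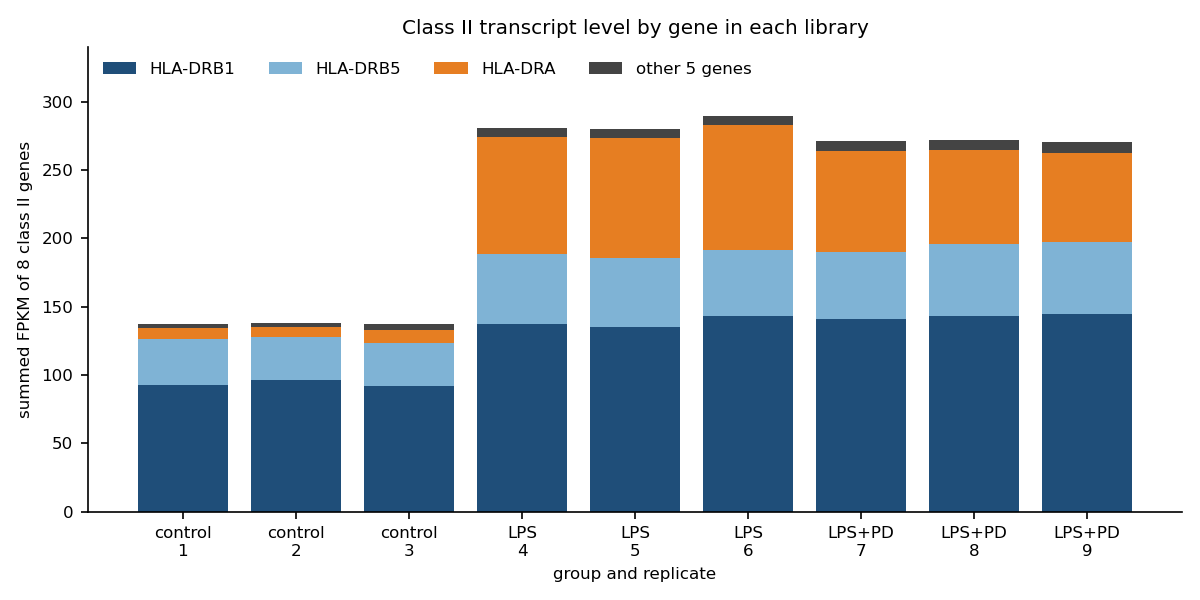
Stacked bars give the summed FPKM of the 8 class II genes in each of the 9 libraries, split into HLA-DRB1, HLA-DRB5, HLA-DRA and the other 5 genes. The 3 control bars reach 137.0 to 138.0 FPKM, the LPS bars 280.0 to 289 and the LPS+PD bars 270.2 to 272, and the HLA-DRA segment is the one that grows most from control to LPS.

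Promoter sequence was available for 8 of the 10 genes, in 9 windows from 250 bases before to 50 bases after a gene's start (RefSeq, build GRCh38.p14). HLA-DRA and CIITA had no entry. The windows were searched on both strands for AGNNACNGA, letters found in class II X boxes where RFX binds, and for ATTGG, the inverted CCAAT of the Y box where NF-Y binds. The X box letters were chosen after these windows had been read, and the 2 motifs share no base in the module searched. Stretches of 90 bases are shown 5′ to 3′ along the gene because they carry the letters that the 8 genes share or lack. Capitals mark at most 1 match of each motif per stretch, and further matches stay in lower case, such as a second Y box match in HLA-DPB1 on the other strand. HLA-DPA1 had 2 windows. The window at chr6:33080699-33080998, near the outer start of the gene, held neither motif and is not shown. The HLA-DPA1 stretch comes from the other window, at chr6:33073600-33073899, inside the gene.
HLA-DRB1 (chr6:32589864-32589953, minus strand): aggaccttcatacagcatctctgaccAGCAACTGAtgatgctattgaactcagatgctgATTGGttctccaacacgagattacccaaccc
HLA-DRB5 (chr6:32530347-32530436, minus strand): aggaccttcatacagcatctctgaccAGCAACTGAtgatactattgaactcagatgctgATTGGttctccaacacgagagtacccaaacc
HLA-DMA (chr6:32953146-32953235, minus strand): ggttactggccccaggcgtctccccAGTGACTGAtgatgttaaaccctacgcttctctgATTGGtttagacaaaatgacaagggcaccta
HLA-DOA (chr6:33009628-33009717, minus strand): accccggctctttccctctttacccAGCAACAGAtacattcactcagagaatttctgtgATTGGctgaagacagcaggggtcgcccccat
HLA-DMB (chr6:32941067-32941156, minus strand): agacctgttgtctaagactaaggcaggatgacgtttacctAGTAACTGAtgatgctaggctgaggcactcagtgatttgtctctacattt
HLA-DPA1 (chr6:33073699-33073788, minus strand): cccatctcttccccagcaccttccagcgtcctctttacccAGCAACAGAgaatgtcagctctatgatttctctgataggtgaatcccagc
HLA-DPB1 (chr6:33075849-33075938, plus strand): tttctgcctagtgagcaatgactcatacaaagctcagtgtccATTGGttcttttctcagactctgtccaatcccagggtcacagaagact
CD74 (chr5:150412916-150413005, minus strand): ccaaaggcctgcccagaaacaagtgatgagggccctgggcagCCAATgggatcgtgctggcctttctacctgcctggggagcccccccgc

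The X box letters were in 6 of the 9 windows and in 15.3% of 35116 promoters of the same length, and ATTGG in 7 of the 9 and in 34.6%. Both in X to Y order, 10 to 40 bases apart on 1 strand, stood in the windows of HLA-DRB1, HLA-DRB5, HLA-DMA and HLA-DOA, against 0.390% of all promoters. Since the X box letters were chosen on these windows and the HLA-DRB windows are near copies, these shares describe the windows and do not test for enrichment. The gap between the motifs was 24 bases in both HLA-DRB genes and 25 in HLA-DMA and HLA-DOA. HLA-DRB1 and HLA-DRB5 differed at 3 of the 90 bases shown. Among the genes with the module, both HLA-DRB genes rose with LPS, HLA-DMA did not pass the test and HLA-DOA was barely detected. CD74 holds CCAAT in gene orientation. Matches describe letters in these windows, not sites of binding. A window without a match may still hold a variant of either box that these exact letters miss.

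The first comparison, LPS against control, asks how endotoxin changed these genes. Of the 10, 7 reached 1 FPKM in 3 libraries or more and entered the test, and HLA-DPA1 and HLA-DPB1 did so only through libraries with LPS, since all their control values were below 1. LPS raised 6 of the 7 and HLA-DMA did not pass, where 26.4% of the 13692 genes tested were called higher and 39.7% lower (66.2% either way). Because the filter favoured a call for those 2 genes, the other 5 are also given alone: 4 were called higher, and their median log2 fold change was 0.60, beside 0.78 for the 7 and -0.08 over all genes tested. Rescaling by median-of-ratios size factors gave 4528 genes higher and 4418 lower in place of 3621 and 5438, and left the 6 calls as they were. LPS and control values did not overlap for the same 6 genes, where 69.8% of all genes tested did not overlap.

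HLA-DRA (ENSG00000204287; GRCh38, chromosome 6, 32439842 to 32445046, plus strand) encodes the alpha chain shared by all HLA-DR molecules. Its level was 8.29, 7.29 and 9.67 FPKM in the 3 control libraries and 85.9, 87.9 and 91.0 FPKM with LPS. With LPS+PD it was 74.3, 68.7 and 65.0 FPKM. Every LPS library lay far above every control library, and the LPS+PD libraries lay between the other groups without touching either. The LPS mean was 10.5 times the control mean, a change of 3.25 ± 0.08 (SE) in log2(FPKM + 1) with an adjusted p of 1.02e-09 by limma. It ranked 115 from the top of the genes tested in this comparison.

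The beta chains changed less. HLA-DRB1 (ENSG00000196126; chromosome 6, 32578769 to 32589848, minus strand) was at 92.4, 96.0 and 92.1 FPKM in control and at 138, 135 and 144 FPKM with LPS. HLA-DRB5 (ENSG00000198502; chromosome 6, 32517343 to 32530287, minus strand), a further HLA-DR beta chain gene present on some haplotypes, was at 34.1, 31.5 and 31.4 FPKM in control and at 50.6, 50.1 and 48.2 FPKM with LPS. Neither gene's LPS values overlapped its control values. HLA-DRB1 rose by 0.57 ± 0.03 on the log2 scale (adjusted p = 1.27e-07, limma) and HLA-DRB5 by 0.60 ± 0.04 (adjusted p = 1.25e-06), in both cases about 1.5-fold (1.49 and 1.54). Reads can pass between these genes, since 8.64% of the 50-base words of HLA-DRB1 transcripts also occur in HLA-DRB5, and the sources used here do not say how such reads were placed.

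The HLA-DP pair was expressed at low levels. HLA-DPA1 (ENSG00000231389; chromosome 6, 33064569 to 33080775, minus strand), the alpha chain, was at 0.573, 0.590 and 0.725 FPKM in control and 2.90, 3.20 and 2.87 FPKM with LPS. HLA-DPB1 (ENSG00000223865; chromosome 6, 33075926 to 33087201, plus strand), the beta chain, rested on 12, 12 and 19 fragments in control and on 51, 57 and 68 with LPS, equal to 0.244, 0.275 and 0.423 against 1.03, 1.25 and 1.50 FPKM. Both genes were higher in every LPS library. The means differed 4.75-fold for HLA-DPA1 and 4.02-fold for HLA-DPB1, and the log2(FPKM + 1) changes of 1.29 ± 0.07 and 0.78 ± 0.12 understate these because the levels are near the added 1 (adjusted p = 2.35e-07 and 0.00024, limma). The genes lie head to head on opposite strands and share 96 exon bases.

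CD74 (ENSG00000019582; chromosome 5, 150401637 to 150412929, minus strand) was at 55.9, 59.3 and 54.4 FPKM in control and at 139, 138 and 140.3 FPKM with LPS. With LPS+PD it reached 167, 169 and 168 FPKM. The 3 groups formed 3 separate levels with a narrow spread inside each. The LPS mean was 2.46 times that of control, a log2 change of 1.29 ± 0.03 (adjusted p = 6.67e-10, limma).

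The levels of the HLA-DM genes, which encode the peptide editor, overlapped between LPS and control. HLA-DMA (ENSG00000204257; chromosome 6, 32948613 to 32969094, minus strand), its alpha chain, was at 2.06, 2.27 and 2.60 FPKM in control and 2.43, 2.06 and 2.09 FPKM with LPS. The log2 difference was -0.05 ± 0.10 (adjusted p = 0.677, limma). HLA-DMB (ENSG00000242574; chromosome 6, 32934629 to 32941070, minus strand), the beta chain, gave 6, 2 and 3 fragments in control and 3, 4 and 3 with LPS. These counts correspond to 0.0469 and 0.0430 FPKM on average (exact permutation test, two-sided, p = 0.8, n = 3 per group). An annotated read-through gene on the same strand covers 438 of the 4655 exon bases of HLA-DMB and 174 of the 2534 of HLA-DMA, and how fragments there were assigned is not stated. HLA-DOA (ENSG00000204252; chromosome 6, 33004178 to 33009612, minus strand), the alpha chain of HLA-DO, had 0 fragments in each control library, 1, 0 and 1 with LPS and 2, 0 and 0 with LPS+PD. All 9 libraries were below the 3 fragments that a count of 0 allows, and no difference was detectable at this depth.

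CIITA (ENSG00000179583; chromosome 16, 10866222 to 10943021, plus strand) was measured at a low level over a long gene model, by 113, 97 and 89 fragments in control, 183, 134 and 146 with LPS and 202, 249 and 250 with LPS+PD. In FPKM these were 0.309, 0.299 and 0.267, then 0.499, 0.396 and 0.434, then 0.544, 0.707 and 0.676. The 3 groups stood in that order with no overlap. The LPS mean was 1.52 times the control mean, with an exact permutation p of 0.1 (two-sided), the smallest that 3 against 3 libraries can give. Without the filter on low values limma gave a log2 change of 0.16 ± 0.07 (adjusted p = 0.128, 31.8% of 32873 genes called). On the fragments, by limma's voom, a test added after seeing the data, the change was 0.60 ± 0.15 (adjusted p = 0.00146, 49.1% of 23244 genes called). In all, 23.4% of the exon bases of CIITA also lie in exons of other genes, 2416 of them in DEXI on the opposite strand. DEXI had 44, 40 and 43 fragments in control, 61, 47 and 59 with LPS and 80, 56 and 62 with LPS+PD. Its values were thus above control in both treated groups but overlapped between LPS and LPS+PD. Without strand the fragments of the stretch shared with DEXI cannot be told apart. Another annotated gene, on the same strand and without values here, covers 2378 exon bases of CIITA. Strand would not separate the fragments of that stretch.

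**Figure D2:**
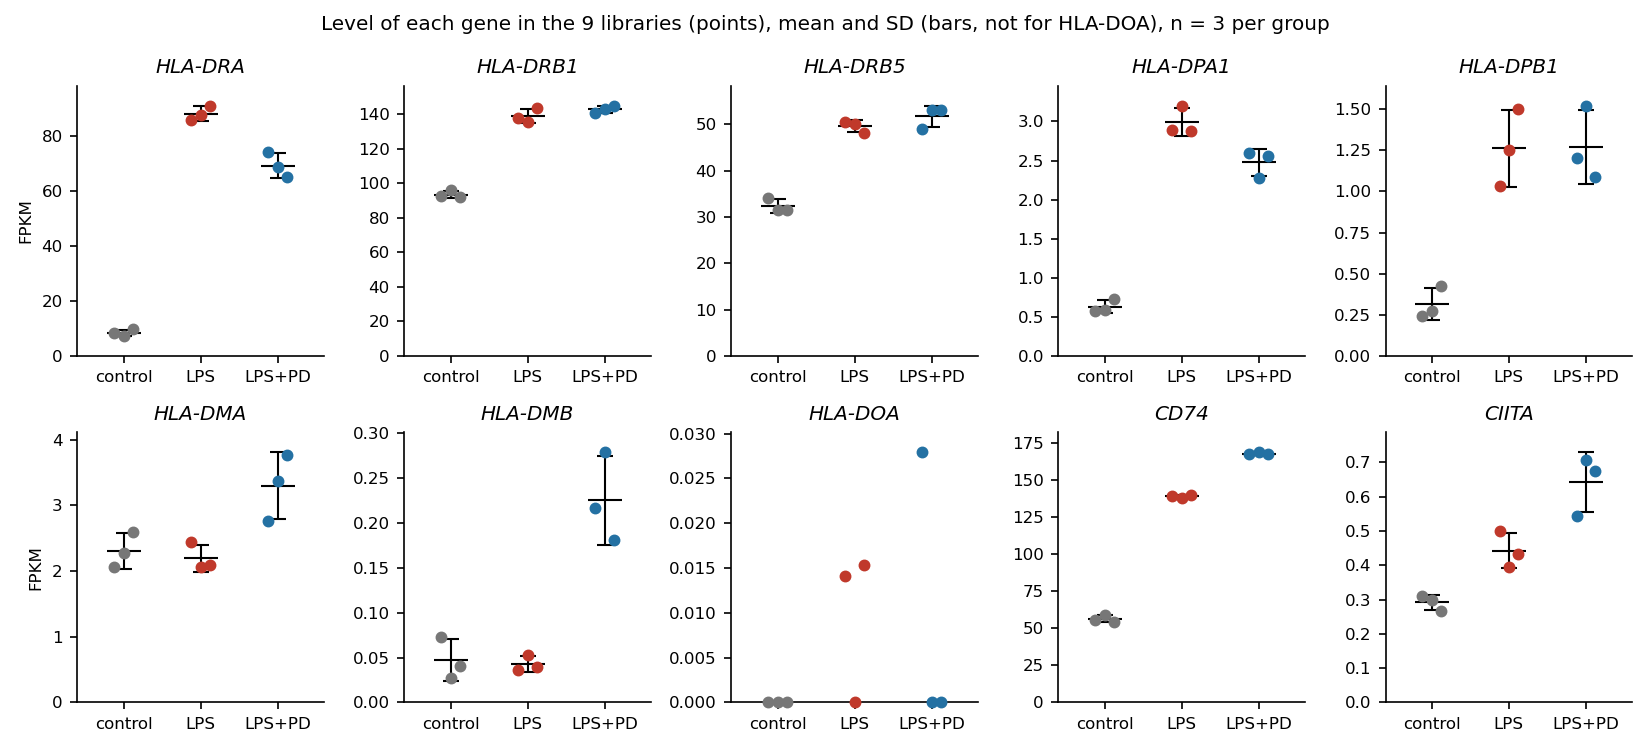
Each panel plots the FPKM of 1 gene (linear axis from 0) in the 3 control, 3 LPS and 3 LPS+PD libraries as points, with the mean and SD as bars except for HLA-DOA. HLA-DRA climbs from 7.29 to 9.67 FPKM in control to 85.9 to 91.0 with LPS and stands at 65.0 to 74.3 with LPS+PD, CD74 and CIITA step up in order of group, and HLA-DMA and HLA-DMB are highest with LPS+PD.

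The second comparison, LPS+PD against LPS, asks what PD changed in LPS-treated cells. It shares its LPS libraries with the first. CD74 and HLA-DMA were higher with PD and HLA-DRA was lower, and the other 4 tested genes were not called. Over all genes tested 23.8% were called higher and 13% lower (36.8% either way), and the median log2 fold change was 0.04 for the 7 genes and 0.07 for all. Values did not overlap for the 3 called genes and HLA-DPA1, where 50.4% of all genes tested did not overlap. With median-of-ratios size factors the split of all calls was 2058 higher and 2508 lower in place of 3259 and 1778, and the 3 calls held with the same signs.

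HLA-DRA was lower in all 3 LPS+PD libraries than in any LPS library. It fell by 0.35 on the log2 scale (SE 0.08, adjusted p = 0.0102, limma), to 0.785 times the LPS mean, which left 76.3 ± 5.88% (SD over the 3 LPS+PD libraries) of its LPS difference from control. Its partner HLA-DRB1 was at 141, 143 and 145 FPKM with LPS+PD, overlapping the LPS values, with a log2 difference of 0.04 ± 0.03 (adjusted p = 0.314). HLA-DRB5, at 49.1, 53.0 and 53.0 FPKM, overlapped as well (0.06 ± 0.04, adjusted p = 0.326). The share of the LPS difference left was 109 ± 4.40% for HLA-DRB1 and 112 ± 13.1% for HLA-DRB5. The signs of the HLA-DRB1 and HLA-DRB5 differences depend on scaling, ranging from -0.04 to 0.06 and from -0.02 to 0.09 over the alternatives.

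HLA-DPA1 was at 2.60, 2.28 and 2.56 FPKM with LPS+PD, below every LPS library. Its log2 difference of -0.20 ± 0.07 missed the threshold (adjusted p = 0.0589, limma), but it passed under both other scalings, without the intensity trend and on fragments, with adjusted p from 0.0228 to 0.0287. The share of its LPS difference left with PD was 78.3 ± 7.46%. Over all 16 alternatives the adjusted p ran from 0.0228 to 0.188. HLA-DPB1, at 1.20, 1.52 and 1.09 FPKM, overlapped the LPS values with a mean difference near 0 (adjusted p = 0.979).

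CD74 moved the other way from HLA-DRA. Each LPS+PD library exceeded each LPS library, by 0.27 ± 0.03 on the log2 scale (adjusted p = 0.000155, limma) or 1.21-fold. Its difference from control was thereby 135 ± 0.900% of that with LPS alone, and 123% after median-of-ratios scaling.

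HLA-DMA was at 2.76, 3.37 and 3.76 FPKM with LPS+PD, above every LPS and every control library. The log2 difference from LPS was 0.42 ± 0.10 (adjusted p = 0.00909, limma), or 1.50-fold. The exons of HLA-DMA overlap those of BRD2 on the opposite strand by 55 bases. BRD2 had means of 47.6, 67.2 and 57.8 FPKM in control, LPS and LPS+PD. With LPS+PD it was called lower than with LPS and higher than in control. The part of BRD2 fragments in the HLA-DMA values was not tested. HLA-DMB gave 18, 22 and 15 fragments with LPS+PD, a sum of 55 against 10 with LPS and 11 in control. The LPS+PD libraries stood apart from all others, although the mean was still only 0.225 FPKM. The ratio of means to LPS was 5.24 (exact permutation p = 0.1, the smallest possible). Without the filter limma gave a log2 difference of 0.23 ± 0.04 (adjusted p = 0.00386, 13.5% of genes called), and voom on the fragments gave 2.22 ± 0.54 (adjusted p = 0.00191, 24.6% called).

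CIITA was 1.45-fold higher with LPS+PD than with LPS by its means, with no overlap (exact permutation p = 0.1). Limma without the filter gave 0.19 ± 0.07 (adjusted p = 0.141), and voom on the fragments 0.53 ± 0.12 (adjusted p = 0.00149). The difference is therefore called in one fit and not in the other, and the fits differ in scale, method and genes tested.

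**Figure D3:**
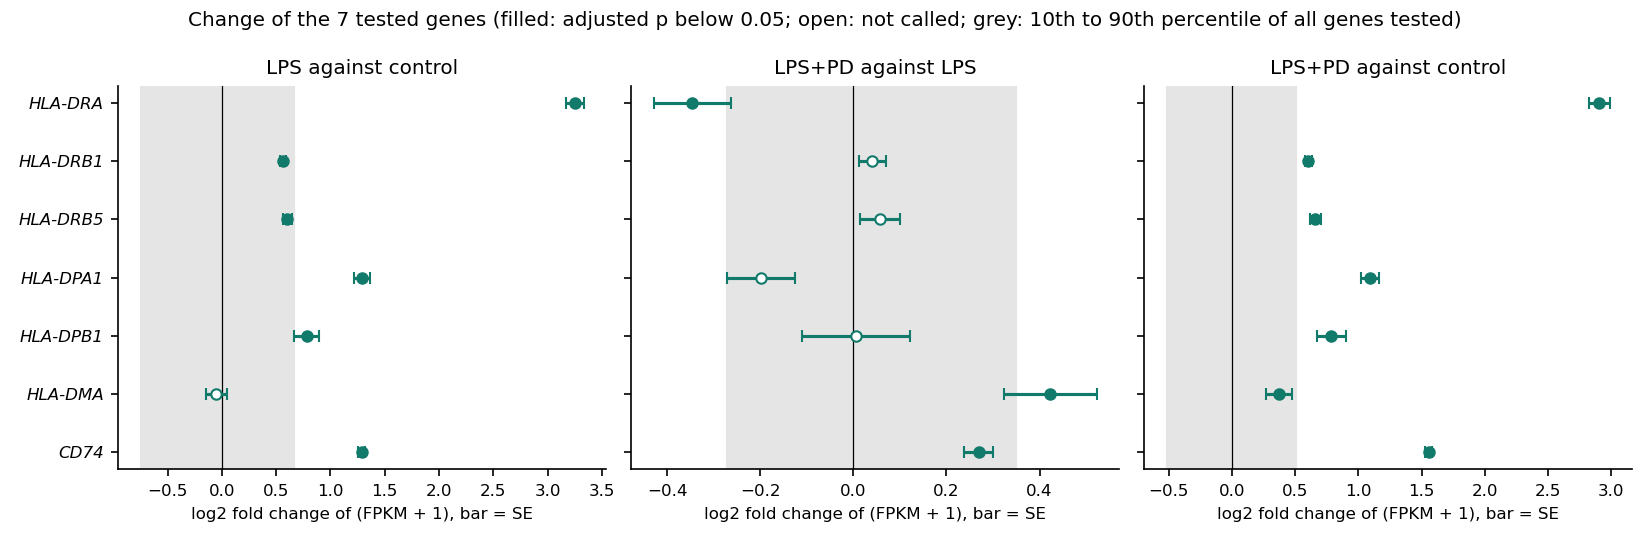
Each panel shows 1 comparison, with the log2 fold change of FPKM + 1 on the horizontal axis (point, with the SE as a bar) for the 7 genes tested, filled where the adjusted p was below 0.05, over a grey band from the 10th to the 90th percentile of all genes tested. HLA-DRA is at 3.25 for LPS against control and at -0.35 for LPS+PD against LPS, where CD74 (0.27) and HLA-DMA (0.42) lie on the other side of 0.

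Against control, LPS+PD left the 7 tested genes higher, 5 of them without the HLA-DP pair, where 26% of all genes tested were called higher and 28.7% lower (54.7% either way). Values of the 7 did not overlap those of control, where 61.6% of all genes tested did not. This comparison shares its control and LPS+PD libraries with the others. HLA-DRA was 8.23-fold and CD74 2.97-fold above control by the ratio of means (log2 changes of 2.91 ± 0.08 and 1.56 ± 0.03, adjusted p = 4.58e-09 and 4.02e-10, limma). HLA-DRB1 was higher by 0.61 ± 0.03, HLA-DRB5 by 0.66 ± 0.04, HLA-DPA1 by 1.09 ± 0.07 and HLA-DPB1 by 0.79 ± 0.12, each with an adjusted p of 0.000341 or lower. HLA-DMA, which LPS alone had not moved past the threshold, was higher by 0.37 ± 0.10 (adjusted p = 0.0107). CIITA was 2.20-fold higher by its means and was called without the filter (0.35 ± 0.07, adjusted p = 0.00714, 23.8% of genes called) and on fragments (1.12 ± 0.14, adjusted p = 8.72e-08, 38.7% called). HLA-DMB was 4.80-fold higher and called on the same 2 scales (adjusted p = 0.00219 and 0.00145).

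Ratios within a library compare partner genes free of any scaling between libraries. For 6 ratios and 3 comparisons, 18 exact permutation tests were run, in which p cannot go below 0.1 and the smallest adjusted p was 0.164. HLA-DRB1 stood at 11.1, 13.2 and 9.53 times HLA-DRA in control, 1.60, 1.54 and 1.58 times with LPS and 1.89, 2.08 and 2.23 times with LPS+PD. The groups did not overlap, so the beta and alpha chain levels were closest with LPS. CD74 to HLA-DRA behaved likewise, with means of 6.83, 1.58 and 2.43 and no overlap. CIITA to HLA-DRA went from 0.0353 in control to 0.00503 with LPS and 0.00934 with LPS+PD, again without overlap.

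The other ratios divide by pair. HLA-DRB5 to HLA-DRB1 was 0.346 ± 0.0207, 0.358 ± 0.0192 and 0.362 ± 0.0114 (SD) in control, LPS and LPS+PD, and the groups overlapped (exact permutation p from 0.3 to 0.8). HLA-DPB1 to HLA-DPA1 overlapped as well, at 0.492, 0.424 and 0.518 (exact permutation p from 0.4 to 0.9). HLA-DMB to HLA-DMA was 0.0210 in control and 0.0199 with LPS, which overlapped, and 0.0697 with LPS+PD, which overlapped neither. The geometric mean of this ratio was 3.49 times that with LPS (exact permutation p = 0.1), on the low counts given above.

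**Figure D4:**
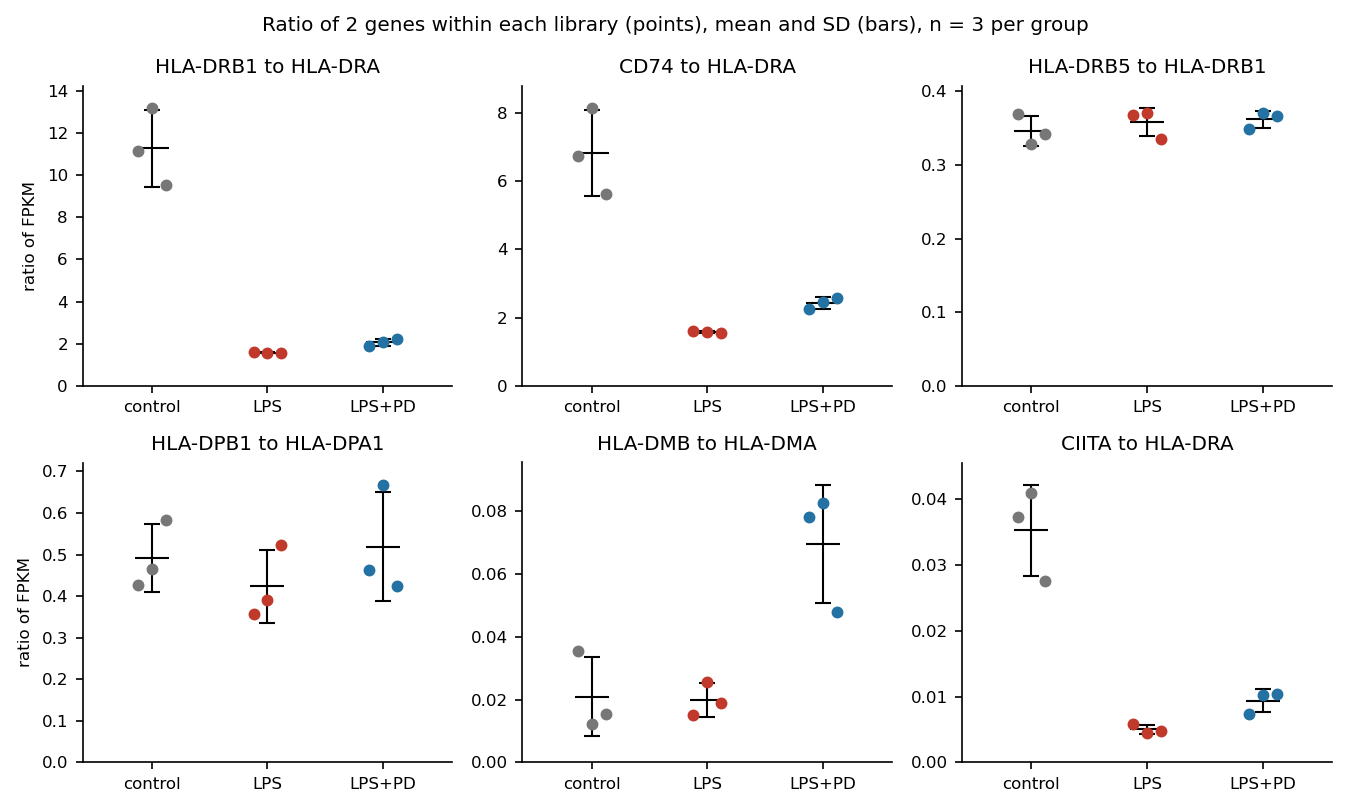
Each panel plots the ratio of the FPKM of 2 genes within each library (points, linear axis from 0) with the mean and SD for n = 3 per group. HLA-DRB1 to HLA-DRA drops from a mean of 11.3 in control to 1.57 with LPS and 2.07 with LPS+PD, HLA-DRB5 to HLA-DRB1 stays between 0.328 and 0.371 in all 9 libraries, and HLA-DMB to HLA-DMA is highest in the LPS+PD libraries.

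The order of levels per all annotated exon bases changed with treatment. In control it ran from HLA-DRB1 through CD74, HLA-DRB5, HLA-DRA, HLA-DMA and HLA-DPA1 to HLA-DPB1 and CIITA, which overlapped, then HLA-DMB and HLA-DOA. With LPS, CD74 and HLA-DRB1 shared the top with overlapping values, HLA-DRA moved above HLA-DRB5 and HLA-DPA1 above HLA-DMA. With LPS+PD, CD74 stood alone at the top and HLA-DMA was above HLA-DPA1, as in control on this length. Neighbours other than the 2 overlapping pairs did not overlap. In control and with LPS, however, HLA-DMB lay near the floor of 3 fragments for HLA-DOA (0.0423 to 0.0478 FPKM). The order of HLA-DMB and HLA-DOA is not resolved there. FPKM here uses all annotated exon bases of a gene, 3184 for CD74 against 1727 in its longest coding transcript. Scaled to that transcript the CD74 mean was 104 FPKM in control, above HLA-DRB1 at 93.5, so the order of this pair in control depends on the length used. On that length CD74 (257) also stood apart from HLA-DRB1 (139) with LPS. With LPS+PD the mean of HLA-DPA1 (8.36 ± 0.594, SD) was above that of HLA-DMA (7.44 ± 1.14), but their values overlapped.

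Over the 9 libraries, with each gene's control mean subtracted from log2(FPKM + 1), the genes nearest to HLA-DRA among 7676 were NPTX1, LPXN, DTX4, GAS7 and SAMSN1, at root mean square differences of 0.14 to 0.15. LPXN, for instance, had means of 4.52, 53.2 and 36.3 FPKM. NPTX1, the nearest, had means of 0.958, 18.2 and 12.1 FPKM, and SAMSN1 of 0.526, 15.3 and 9.69 FPKM. Both had control means below 1 FPKM, where the added 1 shrinks a shift. DTX4 and GAS7 had control means of 2.03 and 2.88 FPKM. Those nearest to CD74 were FSCN1, MYCL, CD209, TMEM138 and PIR, at 0.08 to 0.13. FSCN1, the actin bundler fascin, had means of 59.7, 157 and 184 FPKM. Those near to CIITA included ICMT, BAX, POLRMT and NARS, at 0.04 to 0.05, on a scale where the shift of CIITA itself is 0.16 with LPS and 0.35 with LPS+PD. The added 1 shrinks the CIITA shifts, since CIITA was below 1 FPKM in every library. By its means CIITA was at 1.52 and 2.20 times control. ICMT, at 29.9, 32.7 and 37.4 FPKM, changed by smaller folds, so nearness on this scale is not likeness in fold change.

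Among class II genes outside the 10, 8 of 12 listed had a row and only HLA-DQB1, an HLA-DQ beta chain, was tested. It was at 3.08, 3.17 and 4.11 FPKM in control, LPS and LPS+PD, not called with LPS and higher by 0.29 ± 0.08 with LPS+PD against LPS (adjusted p = 0.0185, limma). HLA-DQA1, its alpha chain partner, was below the filter at 0.124, 0.934 and 0.936 FPKM. The second HLA-DQB1 call was lost after median-of-ratios scaling (0.23 on the log2 scale), and every HLA-DQA1 value in both LPS groups lay above every control value.

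In the counts of gene lists that follow, the shares over all genes tested are those given above, 26.4% higher and 39.7% lower with LPS, and 23.8% higher and 13% lower with LPS+PD against LPS. Nothing particular to a list is read from its count.

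Of 7 factors that bind class II promoters, 1 rose and 4 fell with LPS, and 4 rose and none fell with LPS+PD against LPS. Their median log2 changes were -0.24 and 0.15, beside -0.08 and 0.07 over all genes. After median-of-ratios scaling 2 rose and none fell with LPS+PD against LPS. RFXAP, a subunit of RFX, went from 6.79 to 3.82 and 5.18 FPKM. RFXANK, another subunit, went from 25.1 to 19.5 and 23.1 FPKM. RFX5, the DNA-binding subunit, was at 34.0, 33.6 and 39.7 FPKM and was called only in the comparisons with LPS+PD.

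Of 11 tested genes on the interferon-gamma route to CIITA, 8 rose and 2 fell with LPS, and 1 rose and 9 fell with LPS+PD against LPS, with medians of 0.94 and -0.31. IFNGR2, a chain of the receptor, went from 14.8 to 63.7 and 36.0 FPKM. SOCS1, an inhibitor of the kinases of the route, was at 0.903, 3.78 and 0.812 FPKM. IFNG itself was listed at 0 in 8 of the 9 libraries and at 0.0506 FPKM in 1 LPS library. IFNGR2 and HLA-DRA were thus called higher with LPS and lower with LPS+PD against LPS, whereas CD74 was called higher in both.

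Of 6 tested genes listed as repressors of CIITA, 3 rose and 3 fell with LPS, and 3 rose and 2 fell with LPS+PD against LPS (medians 0.31 and 0.01). BCL6 went from 0.736 to 22.1 and 9.79 FPKM, and PRDM1 from 1.26 to 15.0 and 7.68 FPKM. Both are DNA-binding repressors and were called higher with LPS and lower with LPS+PD against LPS. The 3 rises with LPS+PD were not called after median-of-ratios scaling, which left 2 falls. Of 7 co-activators of CIITA, 1 rose with LPS and 1 (SMARCA4, by 0.14 ± 0.03) with LPS+PD against LPS, and none fell (medians 0.04 and 0.02). After median-of-ratios scaling 3 rose with LPS, and with LPS+PD against LPS none rose and 1 fell.

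Of 15 tested genes of endolysosomal class II loading, 9 rose and 6 fell with LPS, and 4 rose and 6 fell with LPS+PD against LPS (medians 0.51 and -0.01). CTSH, a lysosomal cathepsin, went from 10.3 to 76.1 and 69.8 FPKM. CTSL, another lysosomal cathepsin, went from 16.3 to 41.6 and 26.8 FPKM. Of 6 tested genes of class II turnover and surface stabilisation, 3 rose and 2 fell with LPS, and 2 rose and 2 fell with LPS+PD against LPS (medians 0.01 and 0.09), beside 66.2% and 36.8% of all genes called either way, and no rise with LPS+PD was called after median-of-ratios scaling. CD83, which protects surface class II from ubiquitin-driven loss, went from 1.18 to 40.7 and 13.5 FPKM. MARCH8, a ubiquitin ligase that removes surface class II, went from 2.01 to 0.795 with LPS and was at 0.950 FPKM with LPS+PD. The related ligase MARCH1, below the filter and not tested, was at 0.499, 0.900 and 0.658 FPKM, with every LPS value above every control value.

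CD74 is also a surface receptor for the cytokine MIF. Of 6 tested genes of this receptor complex, 2 rose and 3 fell with LPS, and 2 rose and 1 fell with LPS+PD against LPS (medians -0.26 and 0.23), again beside 66.2% and 36.8% of all genes called. CD44, the signalling partner of CD74, went from 8.13 to 52.9 and 26.0 FPKM. The MIF-binding chemokine receptors CXCR2 and CXCR4 went from 11.1 to 1.19 and 3.29 FPKM and from 35.8 to 13.6 and 24.4 FPKM. MIF was listed at 0.729 FPKM in control, and 61.9% of its exon bases lie in exons of other genes.

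A list of NLRC5, a relative of CIITA that activates class I genes, and of genes of the class I pathway offers a side by side. The part of NLRC5 in their changes was not tested. All 11 rose with LPS and 9 fell with LPS+PD against LPS, with none higher (medians 1.02 and -0.20). TAP1, a chain of the peptide transporter, went from 13.2 to 77.1 and 39.5 FPKM. HLA-E, a non-classical class I gene, was at 37.5, 76.9 and 47.2 FPKM. Whether the class I and class II genes differ in their response to PD was not tested.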

How the data were processed

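The samples were 9 poly(A)-enriched RNA libraries of THP-1 cells in 3 groups of 3, taken from the sample titles. The authors deposited 1 table of FPKM values, with 1 column per library and gene positions on GRCh38. Tools listed in the submitters' processing notes are bcl2fastq, FastQC, HISAT2 and StringTie, without versions. The sources used here do not state how fragments were assigned or whether strand was used, so genes that overlap or share sequence are uncertain.

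Multiplied by GENCODE v29 exon length and divided by the value of 1 fragment, FPKM values gave fragments per gene and depth. Of the 13637 to 14287 low nonzero values checked per library, 98.1 to 98.3% came out whole within 0.05. HLA-DRA, HLA-DRB1, HLA-DRB5 and CD74 lay above the range checked. Fragment floors cover counting error only, and no molecular identifiers are stated.

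Differences were tested in R 4.3.3 with limma 3.58.1 on log2(FPKM + 1), with 1 model of 3 group means and an eBayes intensity trend. Genes that reached 1 FPKM in 3 or more of the 9 libraries (13692) were tested, and calls were made at a p below 0.05 after Benjamini-Hochberg adjustment over them. Ratios were tested with two-sided exact permutation tests. Levels, ratios and promoter matches used numpy 2.4.6, pandas 2.3.3 and scipy 1.17.1, and figures matplotlib 3.10.9. The tests were tried on simulated data first. The HLA-DOA to HLA-DMA ratio was not computed, since HLA-DOA was at 0 in control.

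Nothing in the labels says that libraries of a group came from separate cultures, so p-values measure the spread between libraries, which may be technical. The genes and lists were chosen with earlier results of these data known. All 10 genes are named, with at most 3 called genes of largest change per list and comparison, and the 5 nearest genes to HLA-DRA, CD74 and CIITA by root mean square difference, among genes with a mean of at least 5 FPKM in a group. Some genes that this rule takes are not reported here. HLA-DQA1, MARCH1, MIF, CD68, MRC1, CD163, MS4A1, CLEC9A, CD3G, IFNG, BRD2 and DEXI were named after their values were seen. Alternatives were another pseudocount (0.1), no filter, a filter at 5 FPKM, median-of-ratios size factors, quantile normalization, only the groups compared, no trend, voom on recovered fragments and leaving out each library.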

Additional observations from a re-analysis of the deposited data

How the results depend on the processing

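No paired analysis was possible because the replicate numbers run from 1 to 9 and no number is shared between groups. Of 450 recomputed gene results 444 kept their direction where called and their side of the threshold. The 6 others passed only in an alternative: HLA-DPA1 for LPS+PD against LPS in 4, and CIITA for LPS against control and for LPS+PD against LPS on fragments. Genes called for LPS against control came to 5929 at a filter of 5 FPKM, where fewer genes (7807) were tested, against 9059. Leaving out 1 library gave 8157 to 8986 for LPS against control, 4095 to 5081 for LPS+PD against LPS and 6503 to 7366 for LPS+PD against control. With median-of-ratios size factors the summed class II level was 134, 295 and 268 FPKM in control, LPS and LPS+PD. The share of the LPS difference left with PD was then 93.2% for HLA-DRB1, 97.0% for HLA-DRB5 and 123% for CD74, in place of 109%, 112% and 135%, which crosses 100% for both HLA-DRB genes. Leaving out 1 library moved it between 105 and 115% for HLA-DRB1 and between 134 and 136% for CD74. The 126 recomputed ratios kept their side of the threshold, which the smallest p of 0.1 cannot pass. Depth limits HLA-DOA, HLA-DMB and HLA-DPB1, and read sharing limits the HLA-DRB genes, HLA-DM and CIITA.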
